A study of Homo sapiens with 6 samples.

Results

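The replication-dependent histone genes comprise every gene of the deposited count table whose symbol begins with HIST1H, HIST2H, HIST3H or HIST4H, 71 of 20030 listed genes. They encode the linker histone H1 (6 genes) and the core histones H2A (17 genes), H2B (18 genes), H3 (15 genes) and H4 (15 genes). The RNA came from cells labelled NCI-H929, a human multiple myeloma line, with 3 libraries of cells carrying a short hairpin RNA against IGF2BP1 (IGF2BP1-KD) and 3 libraries of negative control cells (IGF2BP1-NC). The paper made its stable lines by lentivirus, with puromycin or neomycin for selection. Its vector for the IGF2BP1 hairpins carried a puromycin marker, and the vector of the negative control is not described. No treatment or time point was given, and the hairpin used for these libraries is not named in the sources used here. IGF2BP1, an RNA-binding protein that reads m6A marks, was examined first as the targeted gene. Its counts were 7550, 6904 and 8055 in IGF2BP1-NC libraries 1 to 3 and 2193, 1980 and 2019 in IGF2BP1-KD libraries 1 to 3, a log2 ratio of -1.85 (SE 0.065; edgeR quasi-likelihood test, Benjamini-Hochberg adjusted p = 4.8e-08).

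Total counts lay between 16885449 and 18112179 per library, so that a gene without a count may still have up to 3 (0.166 to 0.178 CPM, counting error only). The labels do not say whether the replicates were separate cultures, so p-values measure only the spread between these libraries, which may be technical. The expression of the labelled cell type was checked with marker genes. Of 10 plasma cell markers, 6 had at most 3 counts in every library, among them TNFRSF17 (BCMA), IRF4 and CD38, while all 10 erythroid markers exceeded 1 CPM in every library. HBE1, an embryonic globin, had 78172 to 95239 counts per library, and GATA1, the erythroid transcription factor, 4032 to 5143. The summed level of the plasma cell markers was 77.3 to 159 CPM in IGF2BP1-NC and 80.4 to 84.6 CPM in IGF2BP1-KD libraries, and that of the erythroid markers 6833 to 7832 CPM and 7058 to 7777 CPM. The other 4 plasma cell markers were XBP1, a secretory cell factor with 1181 to 2689 counts, SDC1 (CD138) with 35 to 62, PRDM1 with 29 to 60 and SLAMF7, with 4, 5 and 4 counts in the controls and 52, 42 and 181 in the knockdown. Of the 4 markers with enough counts to be tested, only SLAMF7 passed the threshold (log2 fold change 4.37; edgeR, adjusted p = 0.00878). It passed the filter on low counts only through the knockdown libraries, where it is high. With most defining plasma cell transcripts at or near 0 and the erythroid markers abundant, the data go against the label, and the cells are called here by the names of their groups. The part of the cells' identity in the histone results was not tested.

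One control library stood apart for the histone genes and is described before the results. Of the 34 histone genes with enough counts to be tested, 23 (67.6%) were highest in IGF2BP1-NC library 1, against 22.5% of all 11994 tested genes. Relative to each gene's mean over the 6 libraries, the median histone gene was 0.38 higher on the log2 scale in that library, 0.083 higher in IGF2BP1-NC library 2 and 0.19 lower in IGF2BP1-NC library 3. The 3 IGF2BP1-KD libraries had medians of -0.065, -0.17 and -0.10, so the control medians ran on both sides of those of the knockdown. Over all tested genes the corresponding medians were between -0.0012 and 0.0057. XBP1, the plasma cell marker named above and a factor of the unfolded protein response, was also high in that control library, with 2689 counts against 1181 to 1365 in the other 5. Its part in the histone levels was not tested.

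**Figure D1:**
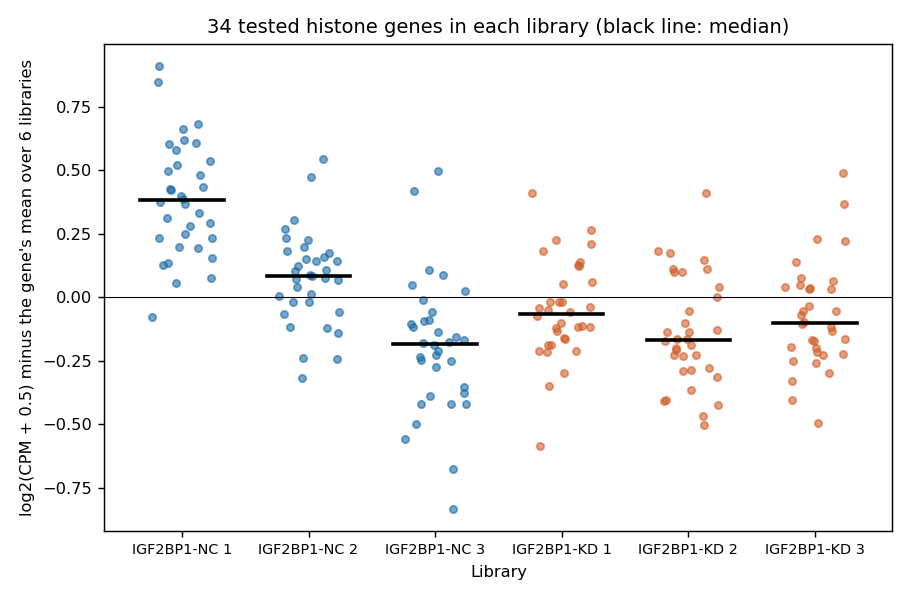
Each point is a tested histone gene (34 per library), the vertical axis is log2(CPM + 0.5) minus the gene's mean over the 6 libraries, and black lines are medians. IGF2BP1-NC library 1 has the highest median (0.38) and IGF2BP1-NC library 3 the lowest (-0.19), with the 3 IGF2BP1-KD libraries between -0.17 and -0.065.

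Histone mRNAs of this class are made mainly during S phase, when new chromatin needs histones. They lack introns, and in place of a poly(A) tail they end just after a short stem-loop, which stem-loop binding protein (SLBP) recognizes and the U7 snRNP helps to cleave. Some of these genes are also known to yield polyadenylated transcripts that run past the stem-loop, particularly in cells that have left the cycle. The libraries were made with a stranded mRNA kit, and whether both kinds of transcript entered the libraries equally was not tested.

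The stem-loop is shown because it sets this class apart from other mRNAs. All 71 genes held it 23 to 68 bases after the stop codon in the GRCh38 sequence, 68 matching the search pattern at every position and 3 with 1 mismatch, and 10 distinct sequences of 16 bases occurred. The 4 found in more than 1 gene are written as DNA with the 4 bases of the loop in capitals.
most common form, 41 genes, HIST1H1C, HIST3H2A and HIST2H2BE among them: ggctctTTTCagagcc
form of 10 genes, HIST1H2BK, HIST1H2BJ and HIST1H2BD among them: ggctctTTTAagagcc
form of 10 H4 genes, HIST1H4J and HIST1H4H among them: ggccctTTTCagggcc
form of 4 H4 genes, HIST1H4K and HIST1H4I among them: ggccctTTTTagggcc
The H4 genes thus had a stem that begins with another run of bases than that of the other types. HIST1H2BK and HIST3H2A, the genes that differed between the groups in every fit, matched the pattern at every position and had different forms, which differ in the last base of the loop.

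Several genes of a type can encode the same protein. By translation of the GENCODE coding sequences, the 15 H4 genes encoded 2 distinct proteins, with 14 of them sharing 1, and the 15 H3 genes encoded 4, with 10 sharing 1. The 17 H2A genes encoded 11 proteins and the 18 H2B genes 14, whereas each of the 6 H1 genes encoded its own. The 17 H2B proteins of equal length were at least 94.4% identical to that of HIST1H2BK.

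Levels are given as FPKM, fragments scaled by the length of the gene model and the size of the library. No count was found in any library for 7 genes, HIST1H3C, HIST1H3I, HIST1H4F, HIST1H4L, HIST2H3A, HIST3H3 and HIST4H4. A further 12 had 1 to 3 counts at most. In all, 37 of the 71 did not pass the filter on low counts and were not tested, and none of these exceeded 15 counts in a library. HIST1H4J, which also reached 15 at most, passed it. At the other end, 17 genes had at least 100 counts in every library. All 71 together took 0.129% to 0.201% of a library.

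HIST1H2BK (NCBI gene 85236, current symbol H2BC12, chr6:27146361-27146855, minus strand, 1 exon), an H2B gene, carried the largest share of the histone counts in every library. Its mean over all libraries was 772 FPKM, it held 40.1% to 49.1% of the histone counts of a library, and it ranked 148 by mean CPM among all listed genes. The linker histone gene HIST1H1C (current symbol H1-2, chr6:26055740-26056470) followed with a mean of 508 FPKM and 21.0% to 28.9% of the histone counts. The pair accounted for 65.9% to 70.8% of a library's histone counts. The next 4 genes by FPKM were the H2A genes HIST1H2AC (118) and HIST3H2A (100.1), the H2B gene HIST1H2BJ (107) and the H3 gene HIST1H3H (79.4). The order of HIST1H2AC, HIST1H2BJ and HIST3H2A lay within the spread between libraries, since HIST1H2AC was 126 ± 21.5 FPKM, HIST1H2BJ 114 ± 11.7 FPKM and HIST3H2A 112 ± 9.39 FPKM in IGF2BP1-NC (SD, n = 3).

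The types differed in how many of their genes were seen and in their levels. Of the H2B genes 13 of 18 could be tested, of the H2A genes 8 of 17, of the H4 genes 6 of 15, of the H3 genes 4 of 15 and of the H1 genes 3 of 6. The median gene had a mean of 9.51 FPKM in H2B, 1.11 in H2A, 0.714 in H1, 0.402 in H4 and 0.164 in H3. In H1 a single gene stood out, as HIST1H1E was next at 3.21 FPKM. In H3 and H4 the leading genes were HIST1H3H and HIST1H4H, the latter at 31.0 FPKM. Summed over the genes of a type as CPM, H2B made up 59.4% of the histone signal, H1 24.4%, H2A 11.5%, H3 3.41% and H4 1.39%. The core histones are needed in equal amounts in a nucleosome, and these sums of mRNA reads were not equal. Whether transcripts with and without a poly(A) tail were captured equally was not tested. The sums therefore do not give the relative amounts of all histone mRNA.

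**Figure D2:**
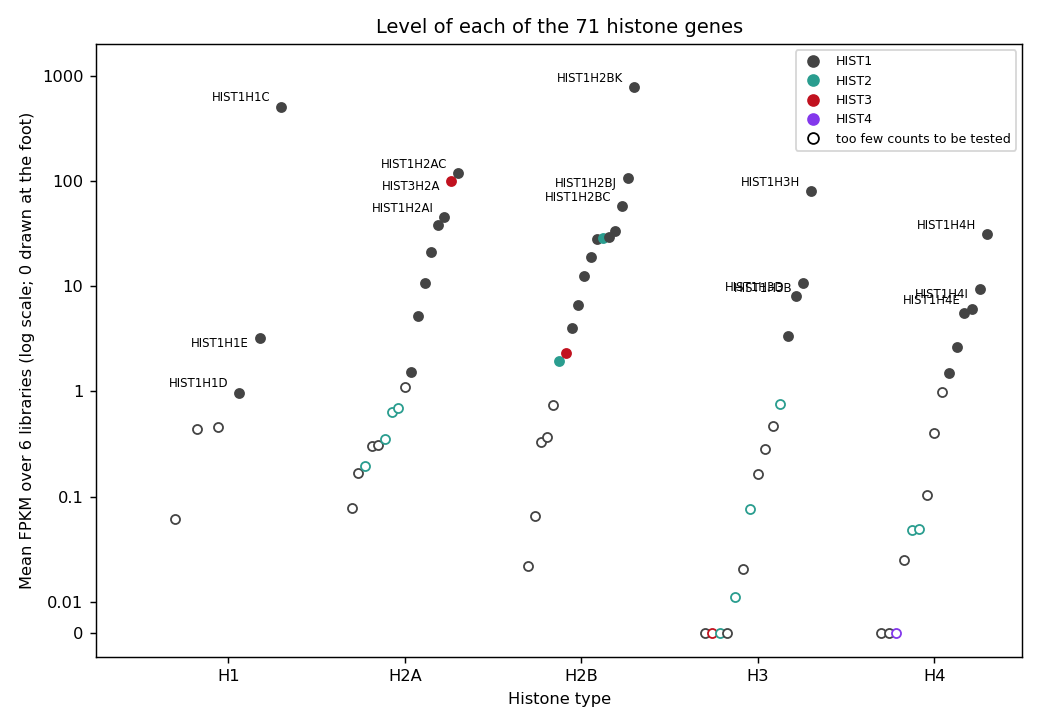
Each point is a histone gene placed by type, the vertical axis is its mean FPKM over the 6 libraries on a log scale with 0 drawn at the foot, colours mark the cluster and open points mark genes with too few counts to be tested. HIST1H2BK and HIST1H1C are highest, with mean FPKM of 772 and 508, and 7 genes are at 0.

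By position, the HIST1 cluster on chromosome 6 held 55 of the genes and 92.3% of the summed CPM. Its genes fall into 3 groups separated by more than 300 kb, with 34 genes at chr6:25726063-26285534, 5 at chr6:27132316-27147562 and 16 at chr6:27807479-27893891. The group of 5, which includes HIST1H2BK, HIST1H2BJ and HIST1H2AG, had 49.3% of the summed CPM, the group of 34 36.8% and the group of 16 6.25%. The HIST2 cluster on chromosome 1 held 12 genes with 4.36% of the sum, nearly all from HIST2H2BE (28.7 FPKM), while no other HIST2 gene exceeded 1.95 FPKM. HIST3, also on chromosome 1, held 3 genes with 3.29% of the sum, led by HIST3H2A, and the single HIST4 gene on chromosome 12 had no count.

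The comparison of IGF2BP1-KD with IGF2BP1-NC cells asked which of these transcripts differ once IGF2BP1 is depleted. HIST1H2BK and HIST3H2A were lower in IGF2BP1-KD cells by about the same amount, the low-count gene HIST1H4J passed the threshold narrowly with all libraries but not without the filter on low counts, and no histone gene was higher. Of 34 tested genes, 3 (8.82%) had an adjusted p under 0.05, where 28.2% of all tested genes did (14.5% lower and 13.7% higher, edgeR quasi-likelihood test, Benjamini-Hochberg). In bulk RNA, fewer cells of a kind and less RNA per cell cannot be told apart.

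HIST1H2BK had 13944, 14078 and 12524 counts in IGF2BP1-NC libraries 1 to 3 and 11757, 10185 and 9464 in IGF2BP1-KD libraries 1 to 3. Every control library was above every knockdown library, and the high values of library 1 seen for other histone genes were not seen here. Its FPKM was 866 ± 74.9 against 678 ± 64.1 (SD, n = 3), a log2 fold change of -0.36 (SE 0.083; edgeR, adjusted p = 0.00862). Leaving out any 1 library kept the fold change between -0.43 and -0.29. Of its 75-base windows in the GENCODE transcript, 39.0% also occur in transcripts of other genes, foremost copies of an H2B sequence on another chromosome. The listed gene H2BFS, which carries such a sequence, had 7, 16 and 16 counts in the controls and 7, 8 and 4 in the knockdown.

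HIST3H2A (NCBI gene 92815, current symbol H2AC25, chr1:228457364-228457873, minus strand), an H2A gene of the HIST3 cluster, had 1050, 938 and 937 counts in the controls and 846, 711 and 737 in the knockdown. The groups did not overlap, and no 75-base window of its transcript occurs in another gene. It fell from 112 ± 9.39 to 88.5 ± 5.91 FPKM (SD, n = 3), a log2 fold change of -0.34 (SE 0.081; edgeR, adjusted p = 0.00949) that stayed between -0.40 and -0.29 with each library left out. HIST1H2BK and HIST3H2A passed the threshold on the adjusted p in all 15 fits tried, and neither reached a fold of 1.5.

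HIST1H4J (NCBI gene 8363, current symbol H4C11, chr6:27824092-27824480, plus strand), an H4 gene, had 14, 11 and 15 counts in the controls and 3, 7 and 6 in the knockdown. The fold change was -1.29 on the log2 scale (SE 0.45; edgeR, adjusted p = 0.0499), and it was called in 3 of the 14 fits that gave it a value and in none that left out a library. It passed the filter on low counts only through the control libraries, where it is high, and its adjusted p was 0.0784 in edgeR without that filter. Since 91.4% of its 75-base windows also occur in HIST1H4K, reads may be split between them by a rule not stated in the sources used here. HIST1H4K had 41, 35 and 35 counts against 43, 22 and 29, and its groups overlapped.

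**Figure D3:**
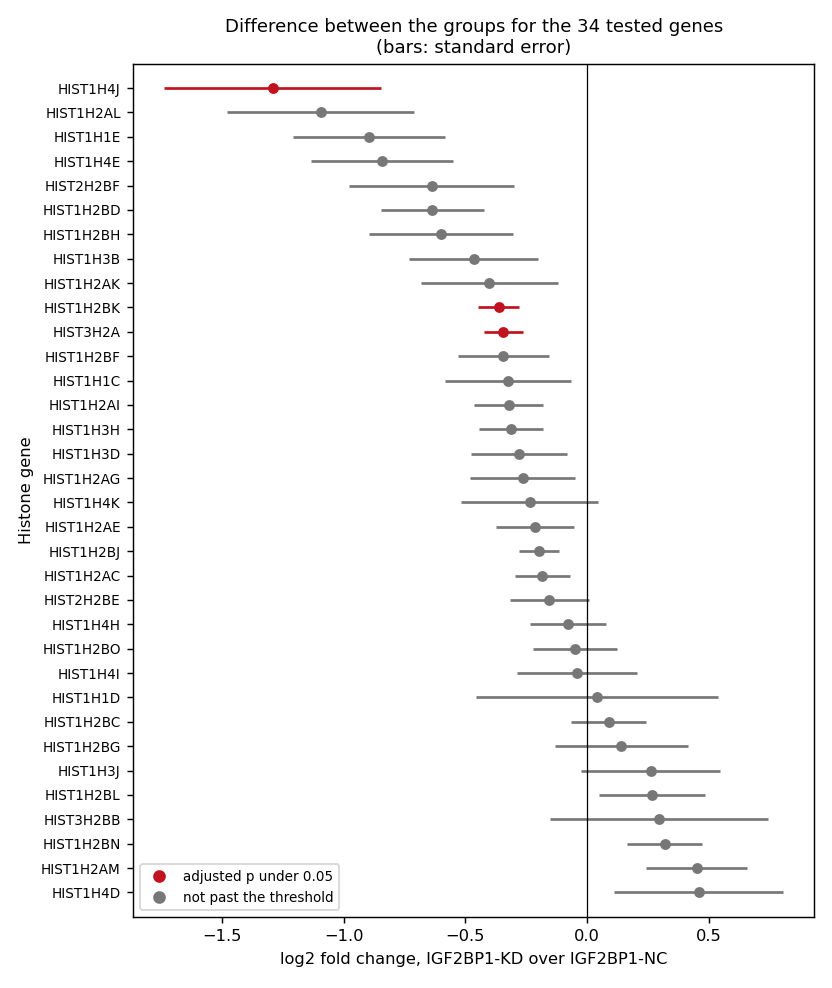
Each point is a tested histone gene, the horizontal axis is its log2 fold change of IGF2BP1-KD over IGF2BP1-NC, bars are standard errors, and red marks an adjusted p under 0.05. HIST1H4J (-1.29), HIST1H2BK (-0.36) and HIST3H2A (-0.34) are red, and 25 of the 34 points lie to the left of 0.

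Values of the tested genes leaned to the lower side, mostly without reaching the threshold. Over all 34 the median log2 fold change was -0.25, against -0.0048 over all tested genes, and 25 (73.5%) were negative, against 50.7% of all tested genes. The groups did not overlap for 11 (32.4%), against 45.6% of all tested genes, and 9 of these 11 were lower in IGF2BP1-KD. At an unadjusted p under 0.05 there were 10 (29.4%), the 3 called genes included, against 40.8% of all tested genes. All 10 were lower, so 29.4% of the tested histone genes were lower at this level, against 20.7% of all tested genes. Among them, HIST1H4J and HIST1H2AL passed the filter on low counts only through the control libraries, where they are high. HIST1H2AL had 18, 13 and 21 counts in the controls and 10, 8 and 6 in the knockdown. Both genes are also among the 9 without overlap, so these shares lean on them in part. DESeq2 and limma-voom also called 0 histone genes higher. This lean depended on IGF2BP1-NC library 1. Without it, the median histone gene was at -0.065, 2 genes were lower (HIST1H2BK and HIST3H2A) and 2 were higher (HIST1H2BG and HIST1H2BN), together 11.8% against 32.8% of all tested genes. Without IGF2BP1-NC library 3, the median was at -0.37 and 10 genes were lower, 29.4% against 22.8% of all tested genes. Of these 10, HIST1H1E, HIST1H2AC, HIST1H2AG, HIST1H2AI, HIST1H2BD, HIST1H2BJ, HIST1H3H and HIST1H4E were not called with all libraries.

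HIST1H1C showed this dependence most plainly. It had 10046, 6146 and 5529 counts in the controls and 6380, 5584 and 5295 in the knockdown, so that 1 control library lay far above the other 5, which overlapped. The log2 fold change of -0.33 (SE 0.26; edgeR, adjusted p = 0.413) became -0.015 without IGF2BP1-NC library 1. HIST2H2BE, an H2B gene known for polyadenylated transcripts, had 1447, 1152 and 930 counts against 1168, 1029 and 961. Its fold change of -0.16 turned to 0.021 without the same library. HIST1H2BD, with 1009, 894 and 575 counts against 541, 489 and 561, had a fold change of -0.64 (edgeR, adjusted p = 0.0702), where the lowest control exceeded the highest knockdown library in counts but not in FPKM. DESeq2 called HIST1H2BD with all libraries.

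Other abundant genes of each type differed by less than the threshold. HIST1H2AC had 1377, 1219 and 1018 counts against 1117, 1087 and 963 (log2 fold change -0.18), and the groups overlapped. HIST1H2BJ had 1031, 980 and 880 against 905, 808 and 797 (-0.20). HIST1H3H, the leading H3 gene, had 859, 747 and 580 against 617, 560 and 576 (-0.31), with library 3 of the controls at the level of the knockdown. HIST1H4H, the leading H4 gene, had 241, 200 and 186 against 183, 170 and 238 (-0.079). The sign turned to 0.037 without IGF2BP1-NC library 1. For HIST1H2BC, with 500, 452 and 330 against 487, 468 and 402, the fold change of 0.087 turned to -0.078 without IGF2BP1-NC library 3. For HIST1H2BG, with 354, 226 and 157 against 283, 263 and 263, that of 0.14 turned to -0.11 without the same library. These values thus set no direction. HIST1H2AI, 61.3% of whose 75-base windows also occur in other genes (498, 408 and 335 against 345, 291 and 353, -0.32) and HIST1H2AG (468, 366 and 250 against 301, 266 and 333, -0.26) overlapped as well. Without IGF2BP1-NC library 1 the fold change was -0.077 for HIST1H2AC, -0.18 for HIST1H3H, -0.17 for HIST1H2AI and -0.034 for HIST1H2AG. Of the HIST3 genes, HIST3H2BB had 24, 19 and 6 against 20, 25 and 15 (0.30, SE 0.45), which turned to -0.11 without IGF2BP1-NC library 3.

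Summed over the genes of a type, each type was lower on average in IGF2BP1-KD, and the groups were separate only for H2B. The H2B sum was 1087, 1065 and 889 CPM in the controls and 880, 817 and 745 CPM in the knockdown, a log2 ratio of mean sums of -0.32, with no overlap between the groups. Without HIST1H2BK the ratio was -0.17. The H1 sum was 580, 361 and 312 against 360, 332 and 306 CPM, a ratio of -0.33 that became -0.017 without IGF2BP1-NC library 1. For H2A, 192 ± 30.2 stood against 161 ± 6.08 CPM (-0.25), for H3 58.0 ± 13.3 against 46.9 ± 1.80 CPM (-0.31) and for H4 22.5 ± 3.52 against 20.2 ± 2.28 CPM (-0.16; all SD, n = 3), with overlapping groups in each. Without IGF2BP1-NC library 1 these ratios were -0.13 for H2A, -0.14 for H3 and -0.055 for H4. By cluster, the ratio was -0.31 for HIST1, -0.18 for HIST2 and -0.33 for HIST3. The controls overlapped with the knockdown for HIST1 and HIST2 and not for HIST3. Within HIST1 the ratio was -0.30, -0.35 and -0.15 for the groups of 34, 5 and 16 genes, without overlap only for the 5. The 34 genes summed to 829, 573 and 470 CPM in the controls, highest in library 1, against 539, 508 and 478.

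**Figure D4:**
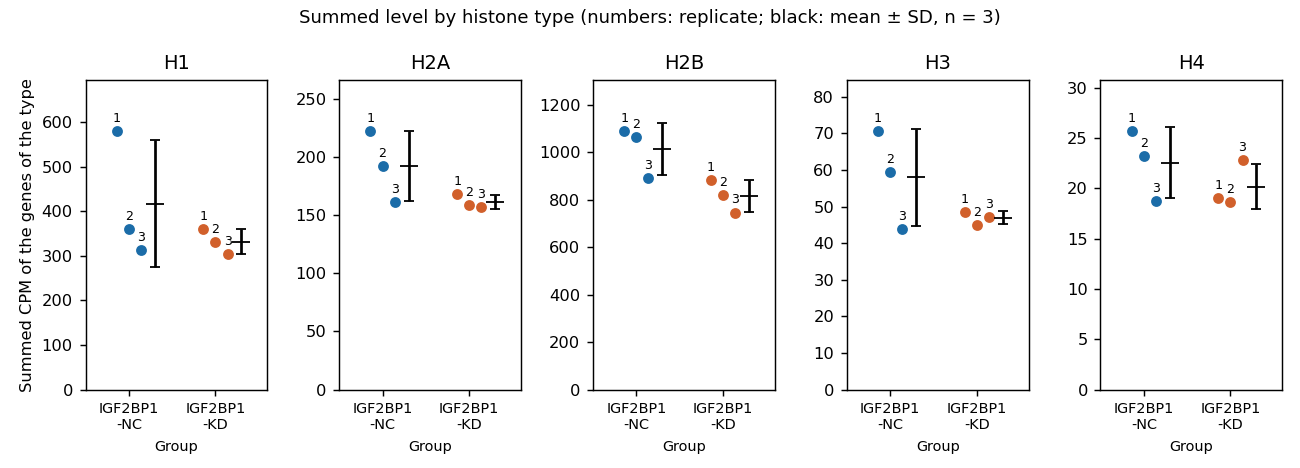
Each panel is a histone type with its own vertical axis from 0, points are the summed CPM of its genes in a library with the replicate number, and black marks are the mean ± SD (n = 3). For H2B the 3 IGF2BP1-KD libraries (745 to 880 CPM) lie below the 3 IGF2BP1-NC libraries (889 to 1087 CPM), and in the other types the groups overlap.

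Many H2A and H2B genes lie head to head, and the sequence between them is shown because levels within a pair could differ widely. There were 12 head-to-head pairs with 193 to 250 bases between the annotated starts. HIST1H2BK and HIST1H2AH are 250 bases apart, yet HIST1H2AH had 3 to 15 counts per library where HIST1H2BK had 9464 to 14078, a 697-fold difference in mean FPKM. HIST3H2A and HIST3H2BB, 229 bases apart, differed 43.3-fold in the other direction, with H2A above H2B. The parts of promoter, gene model and transcript capture in these differences were not tested. The 250 bases before each start (RefSeq, GRCh38.p14) are written 5′ to 3′ on the strand of the named gene, with capitals for ATTTGCAT or its complement ATGCAAAT (the octamer), for CCAAT or its complement ATTGG (the CCAAT box) and for TATAAA on this strand only (the TATA box).
HIST1H2BK, toward HIST1H2AH, chr6:27146859-27147108, minus strand: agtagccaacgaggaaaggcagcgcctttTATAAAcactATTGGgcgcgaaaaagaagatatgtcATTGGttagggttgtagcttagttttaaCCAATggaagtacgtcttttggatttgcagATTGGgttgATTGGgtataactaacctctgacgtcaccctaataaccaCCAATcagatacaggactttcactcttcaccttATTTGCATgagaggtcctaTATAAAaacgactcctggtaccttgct
HIST3H2A, toward HIST3H2BB, chr1:228457874-228458123, minus strand: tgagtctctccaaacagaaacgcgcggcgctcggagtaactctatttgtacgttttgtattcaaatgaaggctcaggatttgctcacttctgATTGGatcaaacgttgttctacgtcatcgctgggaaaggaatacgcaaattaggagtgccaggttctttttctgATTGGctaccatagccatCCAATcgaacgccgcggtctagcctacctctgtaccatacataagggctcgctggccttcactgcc
The HIST1H2BK window held the octamer, 2 TATA boxes and 6 CCAAT boxes, while the HIST3H2A window held 3 CCAAT boxes and neither of the other motifs. Each motif was searched on its own and could overlap another. Among the 66 histone genes matched to a promoter, 39.4% held an octamer, against 1.66% of 27305 promoters, with 77.8% of H2B, 68.8% of H2A and none of the 6 H1 and 13 H4 promoters. TATAAA was in 59.1% against 7.17%, and CCAAT in 84.8% against 33.0%. These are matches of letters and not sites of binding.

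In 4 of the 12 pairs the mean FPKM differed by more than 10-fold, and H2B was the higher in 8. In the 7 pairs with both genes tested, the fitted log2 fold changes had opposite signs in 6, although only HIST3H2A of the 14 genes passed the threshold. The ratio of H2A to H2B within a library, which is not moved by a shift common to both genes, was lower in IGF2BP1-KD in 6 of the 7 pairs. The groups did not overlap in 4 of the 7 pairs, all with a lower ratio in IGF2BP1-KD. Among all tested genes taken singly, the groups did not overlap for 45.6%, and no such share was computed for ratios of other genes. With 3 libraries against 3, an exact permutation p cannot fall under 0.10. For HIST1H2AC and HIST1H2BC, the best counted of the 4, the log2 ratio was 1.46, 1.43 and 1.63 in the controls and 1.198, 1.22 and 1.26 in the knockdown. HIST1H2AK over HIST1H2BN stood at -1.86, -2.58 and -1.75 against -2.74, -2.95 and -2.59. HIST1H2AI over HIST1H2BL gave 3.21, 3.39 and 2.77 against 2.45, 2.43 and 2.74. For HIST1H2AK and HIST1H2AI with their partners the separation was narrow, with the nearest libraries at -2.58 against -2.59 and at 2.77 against 2.74. HIST1H2AE over HIST1H2BG gave -0.34, -0.12 and 0.23 against -0.45, -0.62 and -0.41. HIST1H2AM over HIST1H2BO went the other way, with a mean of -1.02 ± 0.24 against -0.51 ± 0.37 (SD, n = 3) and overlapping groups. The number of pairs with opposite signs fell to 3 without IGF2BP1-NC library 3 and was 5 or 6 with any other library left out.

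**Figure D5:**
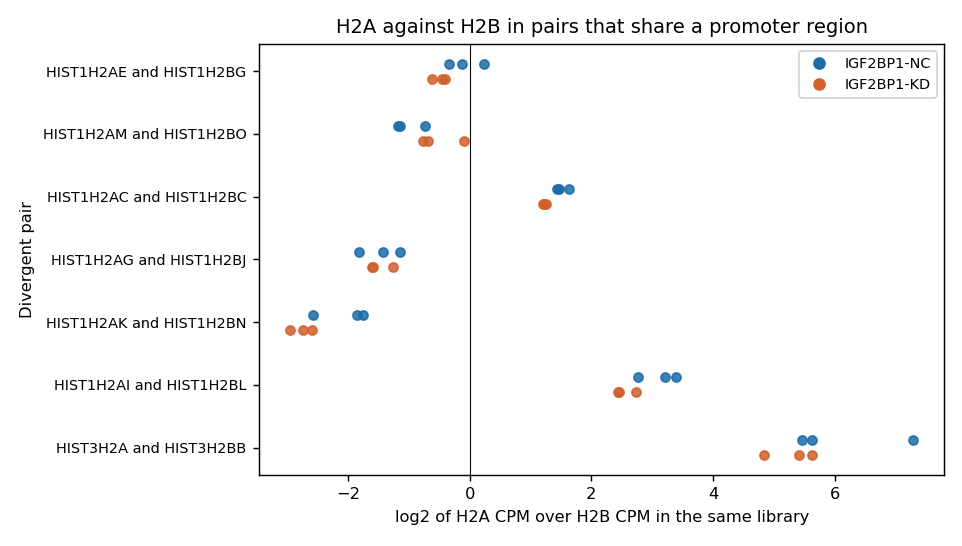
Each row is an H2A and H2B pair lying head to head with both genes tested, and points are the log2 ratio of H2A CPM to H2B CPM within each library, coloured by group. In 4 rows (HIST1H2AC, HIST1H2AK, HIST1H2AI and HIST1H2AE with their partners) all IGF2BP1-KD points lie to the left of all IGF2BP1-NC points.

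The gene models behind the values bear on these levels. For the 64 genes whose model length could be computed from the table, 58 had a model of 354 to 790 bases, and 6 had one of 887 to 2624 bases, HIST1H2BK (887), HIST1H3D, HIST2H2BF, HIST1H2BD, HIST2H2BE and HIST2H3PS2. In GENCODE release 44, 18 genes had a transcript that ends more than 100 bases past the stem-loop, HIST1H2AC, HIST1H2BD and HIST3H2A among them. Together 20 genes had a longer model in either source. Of these, 13 could be tested, against 21 of the other 51, and they made up 10 of the 15 genes with a mean of at least 20 FPKM. HIST1H1C, with no such model, was among the other 5. Of these 10, only HIST1H2BK, HIST1H2BD and HIST2H2BE had a long model by the length computed from the table. The rest, such as HIST1H2AC (546 bases) and HIST3H2A (496 bases), were longer in GENCODE alone, which was not the source of the counts. Reads past the stem-loop are counted only where the model used for counting extends there. How far this sets the order of the genes was not tested. At least 50% of the 75-base windows of 12 genes also occur elsewhere, the near-identical copies HIST2H2AA3 and HIST2H2AA4, HIST2H3A and HIST2H3C, and HIST2H4A and HIST2H4B among them. How reads were split between such copies is not stated, so their counts are uncertain, those of the abundant HIST1H2AI included.

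The factors that make and turn over histone mRNA were read from the same table. SLBP, which binds the stem-loop, had 2968, 3302 and 3227 counts in the controls and 3186, 3155 and 3145 in the knockdown, a log2 fold change of 0.0057 (SE 0.062). NPAT, the activator of histone transcription at histone locus bodies, had 942, 972 and 1126 against 952, 832 and 840 (-0.20, edgeR, adjusted p = 0.0775). Among all tested genes 14.5% were called lower and 28.2% in either direction. Of 35 genes of histone mRNA processing and turnover, all tested, none was higher and 6 were lower (17.1%, median -0.061), close to that 14.5%. They were CCNE1, the cyclin E that activates NPAT (-0.50), LSM11 of the U7 snRNP (-0.38), SNRPF of the Sm ring (-0.34), the cleavage factors SYMPK (-0.33) and CSTF3 (-0.32), and ERI1, an exonuclease that degrades histone mRNA (-0.28).

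Of 20 genes for other histones and histone variants outside these clusters, most of them not tied to replication, 10 could be tested. Of these 10, 1 was higher, CENPA, the centromeric H3 (0.41), and 2 were lower, H2AFZ (-0.23) and H3F3A (-0.23). The share of this list called in either direction was thus near the 28.2% of all tested genes. H2AFZ was at 484 ± 24.5 against 415 ± 12.6 FPKM and H3F3A at 353 ± 20.4 against 302 ± 22.6 FPKM (SD, n = 3). Of 26 histone chaperones and deposition factors, 1 was higher (ASF1B, 0.25) and 7 were lower. These included TONSL, which reads newly made H4 (-0.61), both tested large subunits of the assembly factor CAF-1, CHAF1B (-0.43) and CHAF1A (-0.31), and both subunits of FACT, SUPT16H (-0.25) and SSRP1 (-0.22). Of 43 S-phase genes, 2 were higher (GINS4, 0.23, and PRIM1, 0.22) and 9 lower, among them POLD1, the catalytic subunit of DNA polymerase delta (-0.41), LIG1, the replicative ligase (-0.39), RFC2 of the clamp loader (-0.39) and CDC45 of the replicative helicase (-0.37). The median of the S-phase list was -0.092, with 33 of 43 negative, where 50.7% of all tested genes were negative. In the chaperone list 30.8% were called in either direction and in the S-phase list 25.6%, near the 28.2% of all tested genes. Most of these calls were lower (7 of 26 and 9 of 43), where 14.5% of all tested genes were called lower. Whether these shares differ from that of all genes was not tested.

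Genes of other kinds that start between the first and the last gene of HIST1, or of HIST2, were read in the same way. In the HIST1 span 13 of 19 neighbours could be tested, with 2 higher, BTN2A1 (0.41) and PRSS16 (0.51), and none lower. The HIST2 span begins at HIST2H3PS2 (chr1:143894544), while the other HIST2 genes start from chr1:149782689 on. Its genes thus need not lie beside a histone gene. In this span 32 of 44 could be tested, with 8 higher and 2 lower. NBPF14 (1.07), POLR3C, a subunit of RNA polymerase III (0.39), and RNF115, a ubiquitin ligase (0.36), were among the former, and PDE4DIP (-2.50) and HJV (-2.62) were the latter. The median log2 fold change was 0.19 among the tested HIST1 neighbours and 0.21 among the tested genes of the HIST2 span. Both lay on the other side of 0 from the -0.25 of the histone genes. The shares called in either direction were 15.4% and 31.2%, the latter near the 28.2% of all tested genes. Of the 32 tested genes of the HIST2 span 8 were higher, where 13.7% of all tested genes were called higher.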

How the data were processed

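RNA of 3 IGF2BP1-NC and 3 IGF2BP1-KD libraries was grouped by the labels. The authors used Trimmomatic for trimming, HISAT2 for alignment to GRCh38 and HTSeq for counting. The deposited counts are whole numbers per gene without normalization. The deposited FPKM values were computed by the authors with Cufflinks. Tool versions and the strand setting of the counting are not given in the sources used here. Counts were tested in R 4.3.3 with edgeR 4.0.16 (TMM, filterByExpr, robust glmQLFit, glmQLFTest, two-sided), with Benjamini-Hochberg adjustment over all 11994 tested genes and a threshold of 0.05. The biological coefficient of variation was 9.55%. Replicate numbers did not pair the libraries. CPM values use TMM factors. Alternatives were DESeq2 1.42.0, upper-quartile factors, scaling by library size alone, no filter, at least 10 counts in every library, limma 3.58.1 with voom, limma on log2(FPKM + 1) (mean FPKM 1 or more), the replicate block, a fold of at least 1.5, and each library left out. The fits were tested on simulated data. Stem-loops were searched within 150 bases after the stop codon, with 1 mismatch allowed, in GRCh38 with the GENCODE release 44 annotation. Summaries and figures used Python 3.11.15, pandas 2.3.3 and matplotlib 3.10.9. Named genes were all members past the threshold, the 10 with the highest mean FPKM, and the most counted gene of each type in each cluster, and further members are named where a count or a pair called for it, after their values were seen. Of the other lists, the genes past the threshold (at most 8 per list) could be named, with SLBP, NPAT and IGF2BP1. The members and lists were chosen with earlier results of these data known.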

Additional observations from a re-analysis of the deposited data

How the results depend on the processing

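HIST1H2BK and HIST3H2A kept their direction and an adjusted p under the threshold in all 15 fits. HIST1H4J lost its call in 11 of the 14 fits that gave it a value, and the minimum of 10 counts removed it before testing. With 3 histone genes lower and 0 higher in the fit with all libraries, the number lower was 6 with no filter on low counts, 5 with limma on log2(FPKM + 1) and 1 with a fold of at least 1.5, namely HIST1H4J. Leaving out 1 library gave 2 to 10 lower and 0 to 2 higher. The replicate block gave 2 lower and 0 higher, and the pairing of replicate numbers had no support, since the correlations of same-numbered libraries were -0.132, -0.0211 and -0.106 and 0 of 3 control libraries correlated best with their own number. Signs turned when a library was left out for HIST1H2BC (-0.078 to 0.22), HIST1H2BG (-0.11 to 0.50), HIST1H4H (-0.23 to 0.037), HIST2H2BE (-0.31 to 0.021) and HIST3H2BB (-0.11 to 0.68). Of 194 refitted fold changes of 14 named genes, 172 kept direction and side of the threshold, 11 lost a call, 6 gained one and 5 turned sign. All 40 alternative sums by type moved by less than 1 SD between replicates. That SD (0.47 for H1) includes the high IGF2BP1-NC library 1, so the check could hardly fail when this library was left out. Without it the log2 ratio went from -0.33 to -0.017 for H1 and from -0.31 to -0.14 for H3. Depth limits the 37 untested genes, which had at most 15 counts.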
